A study of Homo sapiens with 9 samples.

Results

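The 53 genes described here were close to undetectable in resting Jurkat cells and gave counts once the cells were activated. Jurkat Clone E6-1 is an established human leukaemic T-cell line, and its messenger RNA was sequenced in 9 libraries. The libraries form 3 groups of 3: non-activated cells (0 h), cells activated for 5 h and cells activated for 12 h. For activation, an anti-CD3 antibody (10 µg/mL) was bound to the culture plates and a soluble anti-CD28 antibody (5 µg/mL) was given with the medium. No group was held unstimulated for the same hours, so activation and time in the plate cannot be told apart. A gene counted as silent when its 0 h libraries held 3 or fewer counts together. It counted as switched on when the 5 h libraries or the 12 h libraries held 20 or more together. Of 19569 genes in the table, 5448 were silent, and 66 of these, or 1.21%, were switched on. Symbols beginning with IL, CCL, CXCL, XCL, CSF, EGR or GZM were then set aside. This removed 13 genes, among them IL2, IL2RA, GZMB and CCL3, and left the 53. Because the members were chosen on their counts at 0 h, 5 h and 12 h, their levels against 0 h are a description and carry no test. The change at 12 h against 5 h was not fixed by the choice for the members that reached 20 counts at both times, and it was tested.

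T cells respond to joint CD3 and CD28 signalling through calcium and NFAT, MAP kinase and AP-1, and NF-κB, which together start transcription of immediate-early genes within minutes and of cytokine and effector genes within hours. Much of this early transcription is transient, because the inducing signals fade and many of the messenger RNAs are short-lived. Jurkat cells have long been used to follow these events, but they are a transformed line and not primary T cells.

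Library totals ran from 4222258 to 9359187 counts, and the library with the fewest was 12 h replicate 1. Levels are given as CPM, counts per 1e6 of a library size corrected by TMM, a normalization that assumes most genes do not change. All 15 T-lymphocyte markers held more than 3 counts at each time, and their summed level was 7642 to 8823 CPM at 0 h, 9311 to 10547 CPM at 5 h and 8921 to 10048 CPM at 12 h. Of 39 markers of 7 other cell types, 14 held more than 3 counts at 1 time or more and 10 had no count in any library. Those 10 were HBB and PF4 for erythroid cells and platelets, COL1A2 and COL3A1 for fibroblasts, EPCAM, KRT5 and KRT19 for epithelium, CDH5 for endothelium, SPI1 for myeloid cells and CD22 for B cells. In each of the erythroid, fibroblast, epithelial and myeloid lists, markers with counts remained (such as ITGA2B, COL1A1, KRT8 and LYZ), and each list summed to at most 4.89 CPM in a library. The natural killer list, led by NKG7 and KLRD1, summed to 24.3 to 31.1 CPM at 0 h, 28.6 to 34.3 CPM at 5 h and 22.5 to 24.4 CPM at 12 h. The B-cell list, nearly all CD79A, summed to 162 to 203, 89.6 to 119 and 130 to 155 CPM at those times, and the endothelial list, nearly all PECAM1, to 199 to 233, 145 to 164 and 188 to 225 CPM. The part of these markers in the results was not tested. Replicates are labelled biological, but whether each had its own culture is not stated. The p-values therefore cover the spread among libraries alone, and that spread may be technical. In bulk RNA, fewer cells making a transcript and less transcript per cell cannot be told apart.

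The stretch before the transcription start is shown for 5 members that reached high levels, because each has a TATA box (TATAAA) at about the same short distance from its start. Not all high members share this. XIRP1, the highest, and ENTPD2 have no TATAAA in the 250 bases before the start, and NR4A2 and GEM had no promoter available. The sequences are the 250 bases before the RefSeq start (GRCh38.p14), written 5′ to 3′ on the gene's strand. Capitals mark TATAAA, the AP-1 motif TGANTCA and the NF-κB consensus, searched on both strands except for TATAAA. MMP10 lies at chr11:102780629-102780878 on the minus strand, VCAM1 at chr1:100719492-100719741 on the plus strand, IFNG at chr12:68159741-68159990 on the minus strand, AREG at chr4:74444886-74445135 on the plus strand and TGFB2 at chr1:218345086-218345335 on the plus strand.
MMP10: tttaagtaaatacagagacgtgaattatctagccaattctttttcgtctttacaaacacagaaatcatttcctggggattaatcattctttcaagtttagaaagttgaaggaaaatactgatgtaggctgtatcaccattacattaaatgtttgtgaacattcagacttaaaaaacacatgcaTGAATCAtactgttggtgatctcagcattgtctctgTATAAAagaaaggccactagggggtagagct
VCAM1: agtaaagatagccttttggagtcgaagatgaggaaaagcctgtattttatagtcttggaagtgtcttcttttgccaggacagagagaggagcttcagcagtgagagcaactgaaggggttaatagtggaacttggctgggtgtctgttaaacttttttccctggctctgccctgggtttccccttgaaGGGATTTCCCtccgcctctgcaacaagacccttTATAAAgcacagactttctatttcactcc
IFNG: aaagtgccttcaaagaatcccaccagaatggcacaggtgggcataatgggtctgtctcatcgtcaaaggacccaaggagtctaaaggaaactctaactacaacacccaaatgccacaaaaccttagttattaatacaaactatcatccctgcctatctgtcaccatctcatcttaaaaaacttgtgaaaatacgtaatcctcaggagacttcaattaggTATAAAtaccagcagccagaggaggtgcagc
AREG: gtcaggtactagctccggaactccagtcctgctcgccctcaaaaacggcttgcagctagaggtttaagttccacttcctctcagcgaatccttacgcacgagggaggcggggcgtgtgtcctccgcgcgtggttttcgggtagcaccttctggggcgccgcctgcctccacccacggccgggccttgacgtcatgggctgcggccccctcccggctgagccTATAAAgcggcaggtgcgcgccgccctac
TGFB2: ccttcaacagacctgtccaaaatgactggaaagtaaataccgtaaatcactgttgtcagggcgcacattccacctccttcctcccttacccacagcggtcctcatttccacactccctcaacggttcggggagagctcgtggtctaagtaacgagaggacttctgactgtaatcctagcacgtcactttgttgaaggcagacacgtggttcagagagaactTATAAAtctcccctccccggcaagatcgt
The TATA box began 31 bases before the start in MMP10 and IFNG and 29 bases before it in VCAM1, AREG and TGFB2. MMP10 also had an AP-1 motif beginning 67 bases before the start, and VCAM1 an NF-κB match beginning 62 bases before it.

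The members together were a small fraction of the messenger RNA. Their summed level was 3.39 ± 0.676 CPM at 0 h, 224 ± 7.98 CPM at 5 h and 98.3 ± 5.89 CPM at 12 h (SD, n = 3 each). The 10 highest genes at 5 h held 40.5% of the sum at 12 h and 67.2% at 5 h. These 10 were chosen by their 5 h level, so part of the larger share at 5 h is built in. Among them are AREG, with 20 counts at 5 h only, and the uncertain ENSG00000286235, with no count at 12 h. Means reached 10 CPM or more at 5 h or 12 h in 6 members. They stayed under 2 CPM at both times in 28. The median member averaged 1.19 CPM at 12 h and 1.52 CPM at 5 h, whereas the median of the 14121 genes with more than 3 counts at 0 h was 26.0 CPM at 5 h. At 0 h, 14 members had no count, 13 had 1, 13 had 2 and 13 had 3. A count of 0 over the 3 libraries allows up to 3 counts, or 0.132 CPM, and folds against such genes are lower bounds. Both times reached 20 counts in 30 members, 12 h alone in 10 and 5 h alone in 13.

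**Figure D1:**
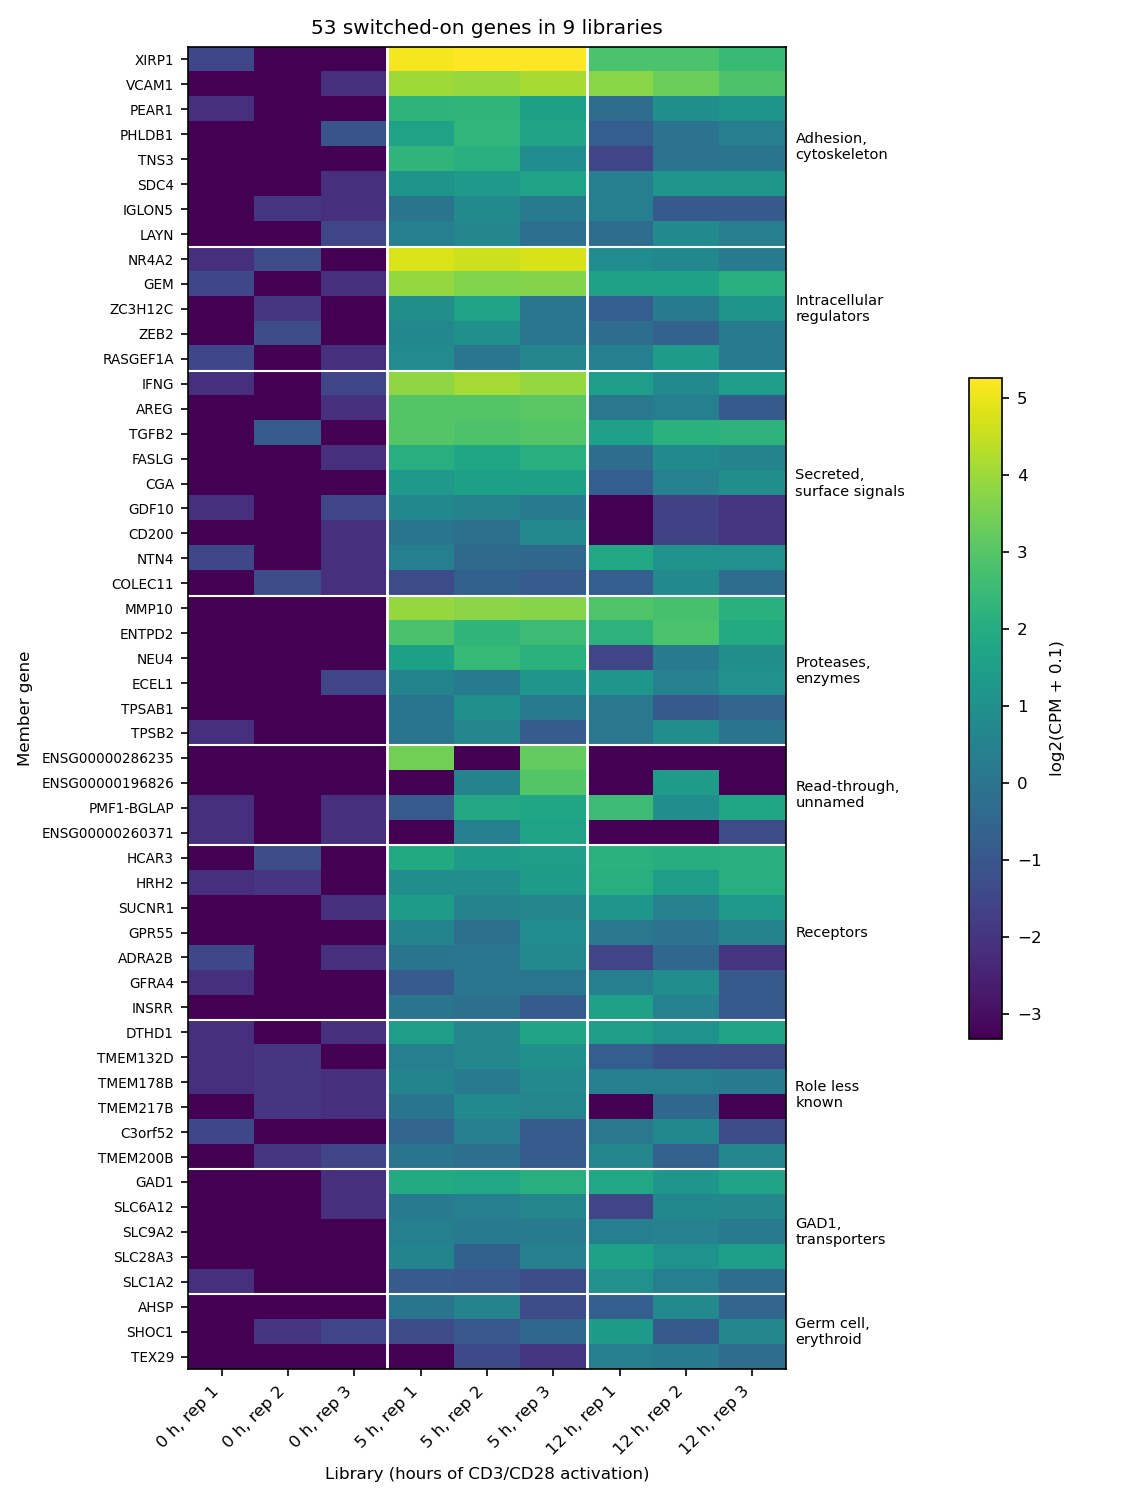
Level of each of the 53 members (rows, grouped by role) in each of the 9 libraries (columns, ordered by hours of activation), as log2 of CPM plus a small constant; lighter colours are higher. XIRP1, NR4A2, VCAM1, IFNG, MMP10 and GEM are brightest in the 5 h libraries, 5 of the 7 receptors have their higher mean at 12 h, and the unnamed genes are bright in some libraries of a group and dark in others. Of the receptors, GFRA4 and INSRR reached 20 counts at 12 h only.

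Secreted or surface signals are encoded by 9 members, and 7 of them had their higher mean at 5 h, where 32 of all 53 members did. Of these 7, AREG, CD200 and GDF10 reached 20 counts at 5 h only, so the choice of members set part of their direction. IFNG, the interferon gamma gene and a hallmark product of activated T cells and natural killer cells, had 1, 0 and 2 counts at 0 h. It reached 14.3, 17.2 and 14.9 CPM at 5 h and 2.68, 1.64 and 2.67 CPM at 12 h. Per kilobase of exon it was the highest member at 5 h, with 12.7 CPM per kilobase. All 12 h libraries lay below all 5 h libraries, and the 12 h mean was 15.1% of the 5 h mean (log2 change -2.78 ± 0.26 SE, edgeR adjusted p = 1.16e-07). FASLG, the Fas ligand that kills Fas-bearing cells, had 0, 0 and 1 counts at 0 h, then 4.06, 3.24 and 4.07 CPM at 5 h and 0.732, 1.64 and 1.33 CPM at 12 h. It too fell, by 1.50 on the log2 scale (SE 0.38, edgeR adjusted p = 0.00413), with no overlap between the groups. FASLG was low at 12 h and could pass the low-count filter through 5 h alone, so its call is a description. IFNG overlaps the antisense gene IFNG-AS1, and the use of strand in counting is not given in the sources used here.

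Growth factors outside the classical cytokine names were switched on as well. AREG encodes amphiregulin, an epidermal growth factor receptor ligand that T cells also make in tissue repair. It had 0, 0 and 1 counts at 0 h, 7.67, 7.70 and 8.30 CPM at 5 h, and 0.976, 1.20 and 0.444 CPM at 12 h. It reached 20 counts at 5 h only, so its 12 h mean, 11.1% of the 5 h mean, is a description. TGFB2, a transforming growth factor beta isoform, had 0, 3 and 0 counts at 0 h, 7.82, 7.30 and 7.83 CPM at 5 h, and 2.93, 4.36 and 4.59 CPM at 12 h. Its groups did not overlap and it fell by 0.90 on the log2 scale at 12 h (SE 0.30, edgeR adjusted p = 0.0229). That call was lost without 5 h replicate 1, 5 h replicate 3, 12 h replicate 1 or 12 h replicate 2 (adjusted p of 0.0591, 0.0643, 0.0672 and 0.0533). The other isoform genes were not silent. TGFB1 averaged 108 ± 7.43 CPM at 0 h, 72.8 ± 6.53 CPM at 5 h and 66.9 ± 4.36 CPM at 12 h, lower than at 0 h at both times (edgeR adjusted p = 4.83e-05 at 5 h and 5.85e-06 at 12 h). TGFB3 averaged 3.18 ± 1.21, 3.21 ± 0.417 and 5.55 ± 1.64 CPM at those times, higher at 12 h than at 0 h (edgeR adjusted p = 0.0277) and than at 5 h (0.0413). EREG, the epiregulin gene beside AREG in its family, held 3 counts at 12 h and none before.

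The remaining signals were weaker. CGA, the common alpha subunit of the pituitary and placental glycoprotein hormones, had no count at 0 h, 2.41, 2.84 and 2.82 CPM at 5 h and 0.488, 1.31 and 1.78 CPM at 12 h. The groups did not overlap, but the change of -1.06 ± 0.42 SE missed the threshold (edgeR adjusted p = 0.0541). It passed without 12 h replicate 3 (adjusted p = 0.047) and in limma-voom (adjusted p = 0.027). CD200, a surface glycoprotein that restrains myeloid cells, and GDF10, a bone morphogenetic protein relative, were seen at 5 h and were near 0 again at 12 h: CD200 had 3 counts at 12 h and 22 at 5 h, and GDF10 had 3 and 27. NTN4, a netrin of basement membranes, had more counts at 12 h, with 14, 18 and 13 counts at 12 h and 8, 5 and 4 at 5 h. COLEC11, a collectin of innate immunity, had 22 counts at 12 h and 9 at 5 h. These 4 reached 20 counts at 1 time only, so the choice of members set part of the difference and it is given as a description.

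Adhesion or the cytoskeleton is the field of 8 members, and 7 had their higher mean at 5 h, as did 32 of all 53 members. Of these 7, TNS3, PHLDB1 and IGLON5 reached 20 counts at 5 h only, so the choice of members set part of their direction. XIRP1, an actin-binding Xin repeat protein known from striated muscle, had the highest CPM of all members. It had 2, 0 and 0 counts at 0 h, 237, 282 and 246 counts at 5 h and 29, 64 and 37 counts at 12 h. These were 35.6, 38.1 and 38.5 CPM at 5 h and 7.08, 6.98 and 5.48 CPM at 12 h. The 12 h mean of 6.51 ± 0.896 CPM was 17.4% of the 5 h mean of 37.4 ± 1.57 CPM (log2 change -2.53 ± 0.17 SE, edgeR adjusted p = 1.1e-09). None of the 23 silent genes on a list of muscle and contractile genes was switched on, and XIRP1 is not on that list. VCAM1, the vascular cell adhesion molecule that endothelium displays under NF-κB signalling, had 0, 0 and 1 counts at 0 h, 16.5, 15.3 and 17.7 CPM at 5 h and 13.2, 10.0 and 7.26 CPM at 12 h. It kept 61.5% of its 5 h mean and had the highest CPM of the members at 12 h. It fell by 0.73 on the log2 scale (SE 0.20, edgeR adjusted p = 0.00773), a call lost without 12 h replicate 3 (adjusted p = 0.0602).

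PEAR1, a receptor of platelets and endothelium, had 1, 0 and 0 counts at 0 h, 4.66, 4.87 and 2.82 CPM at 5 h and 0.732, 1.85 and 2.07 CPM at 12 h. It fell by 1.30 on the log2 scale (SE 0.38, edgeR adjusted p = 0.0117), and the call was lost without 5 h replicate 2 (log2 change -1.16, adjusted p = 0.0555). PEAR1 was low at 12 h and could pass the low-count filter through 5 h alone, so its call is a description. TNS3, a focal adhesion tensin, and PHLDB1, a protein of the cell cortex, reached 20 counts at 5 h only. TNS3 had 15 counts at 12 h and 74 at 5 h, and PHLDB1 had 18 and 77. SDC4, the heparan sulphate proteoglycan syndecan, averaged 1.87 ± 0.567 CPM at 12 h and 2.50 ± 0.440 CPM at 5 h, with overlapping libraries. LAYN, a hyaluronan receptor, averaged 1.18 ± 0.452 CPM at 12 h and 1.16 ± 0.354 CPM at 5 h. IGLON5, a neuronal adhesion protein, had 12 counts at 12 h and 25 at 5 h.

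**Figure D2:**
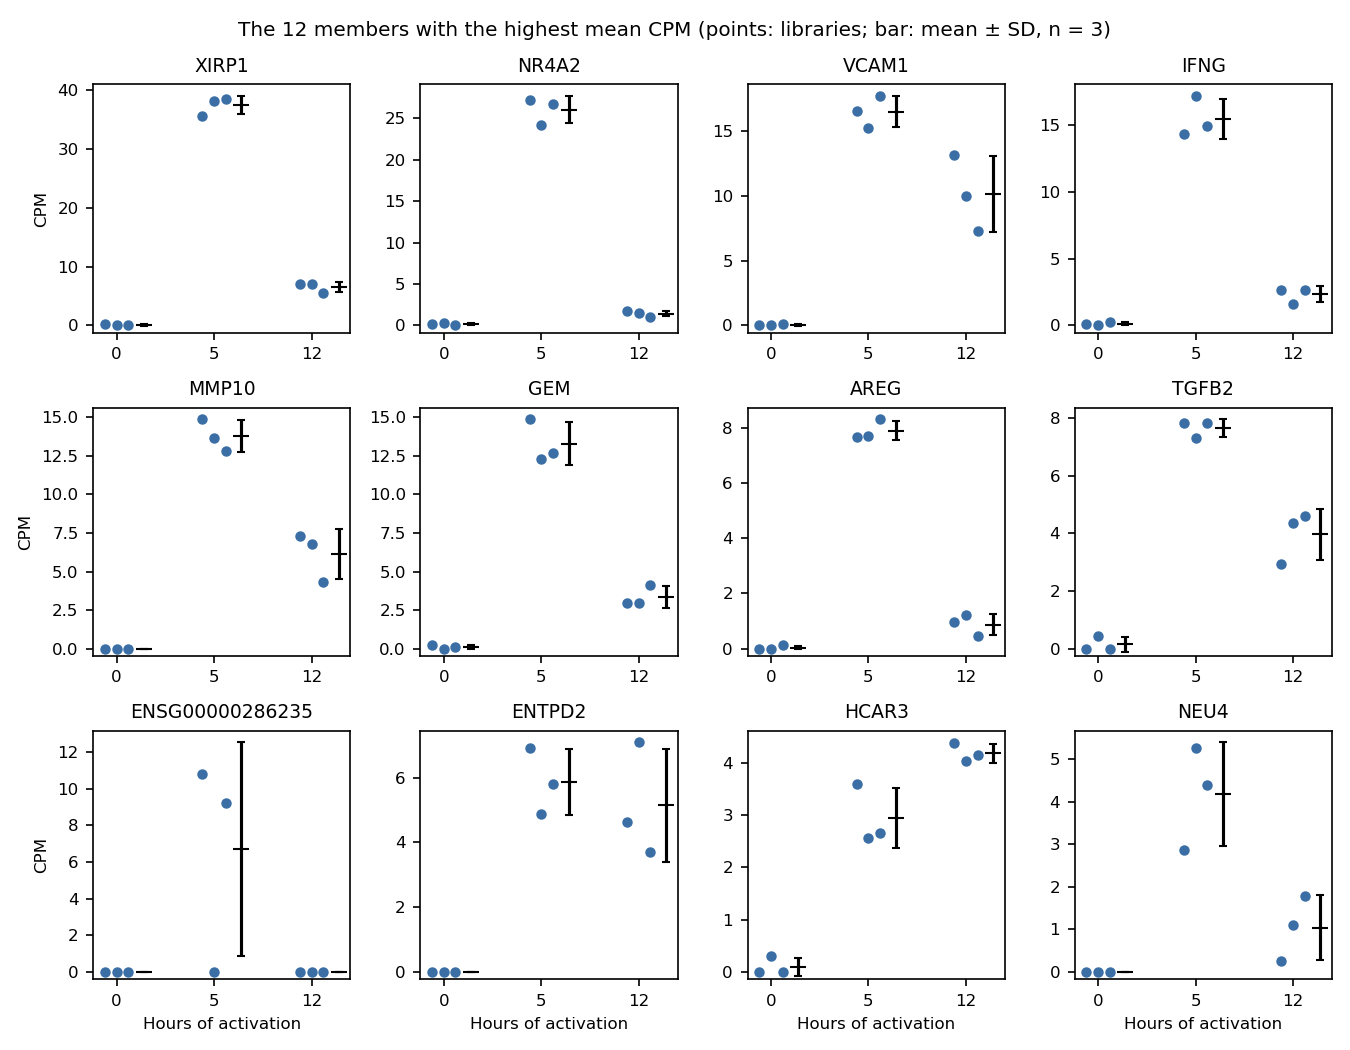
CPM in each library (points) at 0, 5 and 12 hours of activation, evenly spaced, for the 12 members with the highest mean; bars are the mean ± SD of 3 libraries and each panel has its own axis from 0. XIRP1, NR4A2, IFNG, GEM and AREG are far lower at 12 h than at 5 h, VCAM1, MMP10 and TGFB2 are intermediate, ENTPD2 overlaps between both times, HCAR3 is higher at 12 h, and ENSG00000286235 is at 0 in 1 of its 5 h libraries.

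Intracellular regulators made up 5 members, and their summed mean was 8.38 CPM at 12 h and 44.0 CPM at 5 h. NR4A2, an orphan nuclear receptor of the immediate-early class that is needed for dopamine neurons, showed the steepest fall of the members called with the low-count filter. It had 1, 2 and 0 counts at 0 h, 27.2, 24.2 and 26.8 CPM at 5 h and 1.71, 1.53 and 1.04 CPM at 12 h. The 12 h mean was 5.46% of the 5 h mean (log2 change -4.20 ± 0.24 SE, edgeR adjusted p = 7.44e-11). NR4A2 was low at 12 h and could pass the filter through 5 h alone, so its call is a description. Its relatives NR4A1 and NR4A3 were not silent, with 208 and 27 counts at 0 h. NR4A3 averaged 1.19 ± 0.160 CPM at 0 h, 635 ± 10.5 CPM at 5 h and 52.4 ± 1.32 CPM at 12 h. NR4A1 averaged 9.19 ± 0.512, 1426 ± 67.6 and 198 ± 21.9 CPM at 0, 5 and 12 h. GEM, a small GTPase that inhibits calcium channels and was named for its expression in mitogen-stimulated T cells, had 2, 0 and 1 counts at 0 h, 14.9, 12.3 and 12.7 CPM at 5 h and 2.93, 2.94 and 4.15 CPM at 12 h. It fell by 1.98 on the log2 scale (SE 0.25, edgeR adjusted p = 4.71e-06).

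The other regulators were low. ZC3H12C, a regnase-family RNA-binding protein, averaged 1.22 ± 0.800 CPM at 12 h and 1.91 ± 1.02 CPM at 5 h, and its 5 h libraries ranged from 0.940 to 2.97 CPM. It overlaps RDX on the other strand, so its reads are uncertain without the strand setting. ZEB2, a zinc-finger repressor found in effector T cells, had 15 counts at 12 h and 30 at 5 h. RASGEF1A, an exchange factor for small GTPases, had 36 counts at 12 h, of which 24 came from replicate 2, and 27 at 5 h.

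Proteases or other surface and secreted enzymes are encoded by 6 members. MMP10, the matrix metalloproteinase stromelysin-2, had no count in any 0 h library, then 14.9, 13.7 and 12.8 CPM at 5 h and 7.32, 6.76 and 4.29 CPM at 12 h. Its level was at least 104-fold higher at 5 h and at least 45.7-fold higher at 12 h than the 0 h floor. It fell by 1.19 on the log2 scale between 5 h and 12 h (SE 0.22, edgeR adjusted p = 5.16e-04) and still had the second highest level per length among members at 12 h, at 3.48 CPM per kilobase. MMP1 and MMP3, its neighbours in the metalloproteinase family, had no count in any of the 9 libraries.

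ENTPD2, an ectoenzyme that hydrolyses extracellular ATP, overlapped between the times. It had no count at 0 h, 6.92, 4.87 and 5.80 CPM at 5 h and 4.64, 7.09 and 3.70 CPM at 12 h. The change was -0.15 ± 0.29 SE on the log2 scale (edgeR adjusted p = 0.733), and its sign turned without 12 h replicate 3. NEU4, a sialidase, had no count at 0 h, 2.86, 5.27 and 4.39 CPM at 5 h and 0.244, 1.09 and 1.78 CPM at 12 h. It fell by 1.87 (SE 0.44, edgeR adjusted p = 0.00295). NEU4 was low at 12 h and could pass the low-count filter through 5 h alone, so its call is a description. ECEL1, a neuronal endopeptidase relative, averaged 1.81 ± 0.455 CPM at 12 h and 1.54 ± 0.580 CPM at 5 h. The mast-cell tryptase genes TPSAB1 and TPSB2 are near-identical copies that lie about 10 kb apart on chromosome 16, so reads between them are uncertain. TPSAB1 had 12 counts at 12 h and 27 at 5 h, and TPSB2 had 26 and 20.

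The 7 receptors summed to 13.9 CPM at 12 h and 10.7 CPM at 5 h, and 5 of the 7 had their higher mean at 12 h, where 21 of all 53 members did. GFRA4 and INSRR reached 20 counts at 12 h only and ADRA2B at 5 h only, so the choice of members set part of their direction. HCAR3, a hydroxycarboxylic acid receptor of fat cells and neutrophils, had 0, 2 and 0 counts at 0 h, 3.61, 2.57 and 2.66 CPM at 5 h and 4.39, 4.03 and 4.15 CPM at 12 h. HRH2, a histamine receptor, had 1, 1 and 0 counts at 0 h, 1.80, 1.76 and 2.51 CPM at 5 h and 4.15, 2.73 and 4.15 CPM at 12 h. In both genes every 12 h library lay above every 5 h library, but neither change passed the threshold (0.50 ± 0.34 SE, edgeR adjusted p = 0.26, for HCAR3, and 0.83 ± 0.35 SE, adjusted p = 0.074, for HRH2). HDC, the enzyme that makes histamine and no member, had 18, 602 and 757 counts at 0, 5 and 12 h. The near-identical HCAR2 lies 11.4 kb from HCAR3 and held 5, 54 and 61 counts at 0, 5 and 12 h, so the split of reads between the pair is uncertain.

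The other receptors were each under 2.7 CPM in every library of 5 h, and their libraries of 5 h and 12 h overlapped except for ADRA2B. SUCNR1, which senses succinate, averaged 1.96 ± 0.569 CPM at 12 h and 1.77 ± 0.679 CPM at 5 h. GPR55, a receptor for lysophosphatidylinositol, averaged 1.06 ± 0.241 and 1.30 ± 0.459 CPM at those times. ADRA2B, an alpha-adrenergic receptor, had 8 counts at 12 h and 23 at 5 h. GFRA4, a coreceptor of the glial cell line-derived factor family, had 24 counts at 12 h and 16 at 5 h. INSRR, the insulin receptor-related receptor, had 27 counts at 12 h and 15 at 5 h, and its reads are uncertain without the strand setting.

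GAD1 and 4 transporters form the next group, which summed to 8.99 CPM at 12 h and 7.53 CPM at 5 h. GAD1 makes the neurotransmitter GABA from glutamate. It had 0, 0 and 1 counts at 0 h, 3.76, 3.38 and 4.07 CPM at 5 h and 3.42, 2.18 and 2.96 CPM at 12 h, and the change of -0.43 ± 0.33 SE was not called (edgeR adjusted p = 0.322). SLC28A3, a concentrative nucleoside transporter, was the 1 member with 20 counts at both times that was called higher at 12 h. It had no count at 0 h, 1.35, 0.541 and 1.25 CPM at 5 h and 2.93, 1.96 and 2.81 CPM at 12 h (log2 change 1.26 ± 0.44 SE, edgeR adjusted p = 0.0336). The call did not hold without a low-count filter (adjusted p = 0.0623), in DESeq2 (0.13), or without 5 h replicate 2 (0.155), 5 h replicate 3 (0.0585), 12 h replicate 1 (0.0758) or 12 h replicate 3 (0.102). SLC28A3 was low at 5 h and could pass the filter through 12 h alone, so its call is a description. SLC1A2, the main glutamate transporter of astrocytes, had 24 counts at 12 h and 8 at 5 h. SLC6A12, which carries betaine and GABA, had 25 counts at each of the times, and SLC9A2, a sodium-proton exchanger, had 24 and 23.

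Germ-cell and erythroid genes were low, with more counts at 12 h. All of them reached 20 counts at 12 h only, so the choice of members set part of this difference. TEX29, a testis-expressed gene, had 5, 10 and 5 counts at 12 h and 0, 2 and 1 at 5 h, and it was the 1 silent gene with 3 or fewer counts at 5 h and 20 or more at 12 h. SHOC1, which acts in meiotic crossing over, had 10, 4 and 10 counts at 12 h and 2, 3 and 4 at 5 h. AHSP, the alpha-haemoglobin chaperone, had 21 counts at 12 h and 18 at 5 h, while HBB had none. The roles of 6 members are less known. DTHD1, with a death domain, averaged 2.59 ± 0.580 CPM at 12 h and 2.44 ± 0.855 CPM at 5 h. TMEM178B averaged 1.15 ± 0.101 and 1.33 ± 0.243 CPM at those times. TMEM132D and TMEM217B had 7 and 6 counts at 12 h and 31 and 27 at 5 h, and TMEM200B and C3orf52 had 21 and 20 at 12 h and 15 and 16 at 5 h. TMEM200B overlaps EPB41 and C3orf52 overlaps GCSAM on the other strand, so their reads are uncertain without the strand setting.

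The last 4 members are uncertain as genes of their own. ENSG00000286235 had no count at 0 h, 72, 0 and 59 counts at 5 h and none at 12 h. ENSG00000196826 had no count at 0 h, 0, 10 and 49 counts at 5 h and 0, 23 and 0 at 12 h, and overlaps ZNF709 and ZNF564 on its strand. ENSG00000260371 had 1, 0 and 1 counts at 0 h, 0, 9 and 19 counts at 5 h and 0, 0 and 2 at 12 h, and overlaps COG8, TMED6 and TERF2. In these 3 genes some libraries of a group had no count while others had 9 to 72, unlike the leading members. PMF1-BGLAP is a read-through of PMF1 and BGLAP and had 24, 16 and 22 counts at 12 h and 3, 26 and 21 at 5 h. PMF1 alone held 744, 916 and 997 counts at 0, 5 and 12 h, and how reads were shared between the overlapping genes was not tested.

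Across the 53 members, the course between 5 h and 12 h leaned to lower levels. Without a low-count filter, every member could be tested, and edgeR called 20 members lower and 2 higher at 12 h, where 13.2% of all 16697 genes were called lower and 13.9% higher. The rule fixes part of this for the 23 members that reached 20 counts at 1 time only. Among the 30 that reached it at both times, the same fit called 11 lower and 0 higher at an adjusted p under 0.05, and 12 lower and 2 higher at an unadjusted p under 0.05. DESeq2 called 10 of these 30 lower and 0 higher, with 10 and 0 at an unadjusted p. The 11 called by edgeR include ENSG00000196826, and the 20 also include ENSG00000286235 and ENSG00000260371. All of these are uncertain as genes, and their libraries of 5 h and 12 h overlapped. The unfiltered edgeR fit gave an adjusted p of 3.53e-21 to ENSG00000286235, which had 72, 0 and 59 counts at 5 h. For NR4A2 it gave 1.09e-57, where the filtered edgeR fit gave 7.44e-11. The unfiltered p-values may therefore take too little account of a gene's own replicate spread, and those calls are a description. The median log2 change over the 53 was -0.43, and over all genes it was 0. That of the 53 includes the 23 members whose direction the rule set in part. With the filter, 26 members were tested among 12036 genes, of which 18% were lower and 18.1% higher, and 22 of the 26 had reached 20 counts at both times. Of those 22, 10 were lower (NR4A2, IFNG, XIRP1, GEM, NEU4, FASLG, PEAR1, MMP10, TGFB2 and VCAM1), 1 was higher (SLC28A3) and 11 were not called. The filter can be passed through the group where a gene is high, and NR4A2, NEU4, FASLG, PEAR1 and SLC28A3 were low at their other time. For such members the filter used part of the difference tested, so the 10 and 1 of 22 are a description. In CPM, all 12 h libraries lay below all 5 h libraries in 19 of the 53 members and above them in 6, and overlapped in 28. The same held for 17.9% and 16.6% of all genes with counts. The 19 and 6 also include members that reached 20 counts at 1 time only, such as AREG and NTN4.

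The share of its level that a member had left at 12 h varied widely. Among the 8 that averaged over 7 CPM at 5 h, the share of the 5 h mean left at 12 h was 5.46% for NR4A2, 11.1% for AREG, 15.1% for IFNG, 17.4% for XIRP1, 25.1% for GEM, 44.4% for MMP10, 51.8% for TGFB2 and 61.5% for VCAM1. The order of levels per length differed between the times. At 12 h, after the uncertain PMF1-BGLAP with 3.59, the highest were MMP10 with 3.48, HCAR3 with 1.96, ENTPD2 with 1.95 and IFNG with 1.91 CPM per kilobase. At 5 h they were IFNG with 12.7, MMP10 with 7.85, NR4A2 with 6.57 and XIRP1 with 5.79 CPM per kilobase.

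**Figure D3:**
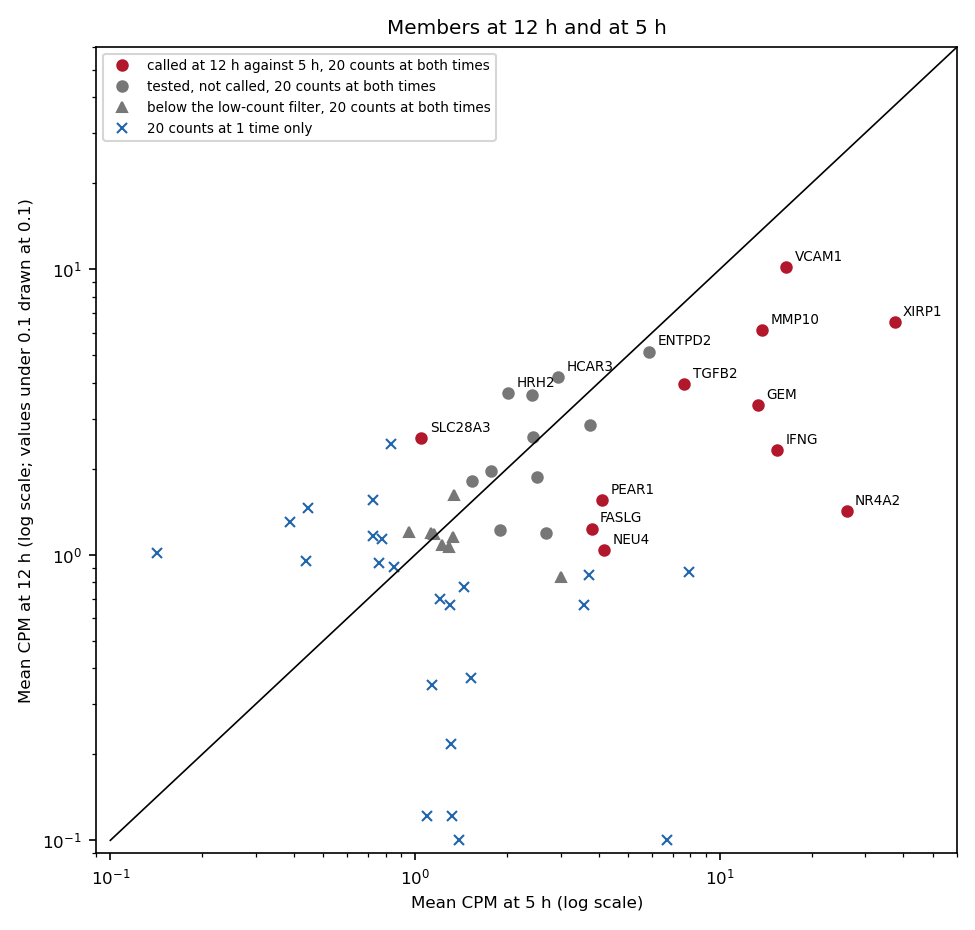
Mean CPM of each member at 12 h (vertical, log scale) against 5 h (horizontal, log scale), n = 3 libraries each; the line marks equal levels. Red points were called by edgeR and include NR4A2 at 1.42 CPM at 12 h and 26.1 CPM at 5 h, far below the line, and SLC28A3 above it; crosses reached 20 counts at 1 time only, where the choice of members sets part of the change.

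The members were spread over several gene lists, and most silent genes of each list stayed under 20 counts. Of 23 gene lists with 889 genes, 15 members belonged to at least 1 and 38 to none. In 5 lists of T-cell activation, 2 to 7 genes were silent. Of 7 silent costimulatory and checkpoint genes 2 were switched on (FASLG and CD200), of 3 silent immediate-early factors 1 (NR4A2), of 4 silent helper and effector factors 1 (ZEB2), of 6 silent NF-κB targets 1 (VCAM1), and of 2 silent negative-feedback regulators 0. The share over all silent genes was 1.21%, but 2872 of the 5448 silent genes had no count in any library, against 0 genes of these 5 lists. The lists were also chosen with earlier results of these data known, so the shares are a description. Of 19 silent secreted signals 3 were switched on (IFNG, AREG and TGFB2). Of 19 silent natural killer and cytotoxic genes 3 were switched on: IFNG, FASLG and XCL1, the last set aside by its symbol.

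The lists of other lineages and functions held 8 to 33 silent genes each, and with the exception of the receptor list 0 or 1 of them was switched on. The counts were 0 of 33 for epithelium and keratinocytes, 0 of 32 for germ cells, 0 of 26 for liver and plasma proteins, 0 of 23 for muscle, 0 of 17 for B and plasma cells, 0 of 15 for ion channels, 0 of 13 for prostanoid enzymes and 0 of 8 for metallothioneins. A single gene was switched on of 25 silent neuronal genes (GAD1), 32 myeloid genes (TPSAB1), 16 proteases and inhibitors (MMP10), 17 matrix and adhesion genes (VCAM1), 15 endothelial genes (VCAM1) and 11 purine ectoenzymes (ENTPD2). Of 32 silent G-protein-coupled receptor and RGS genes 3 were switched on (HRH2, SUCNR1 and GPR55). The members HCAR3 and ADRA2B are receptors of the same kind that are not on that list, and TPSB2 is not on the myeloid list. The interferon-stimulated list had no silent gene. SHOC1, TEX29 and XIRP1 are not on the germ-cell or muscle list.

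**Figure D4:**
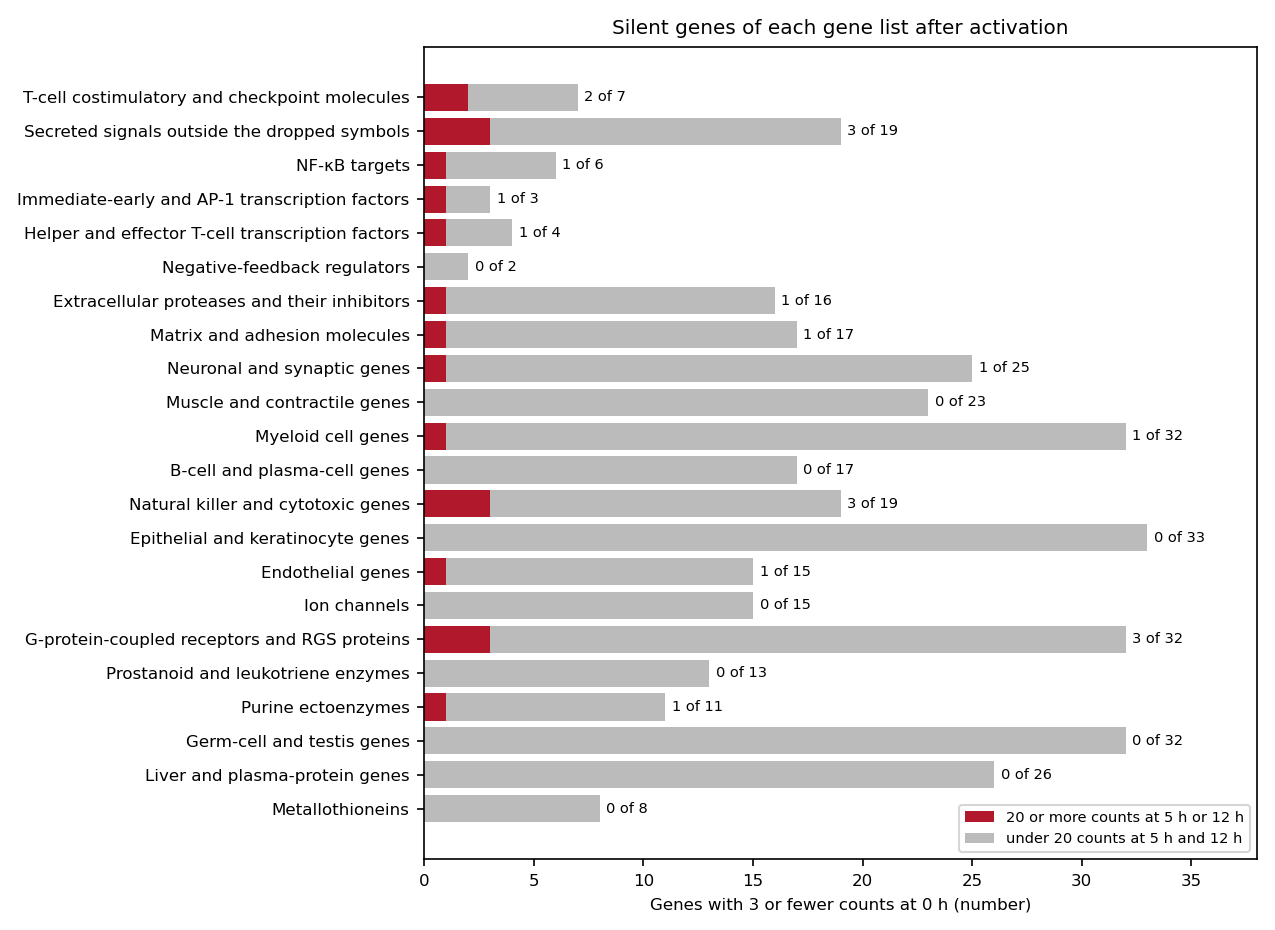
Number of genes with 3 or fewer counts at 0 h in each of 22 gene lists with at least 1 such gene; red marks those with 20 or more counts at 5 h or 12 h, grey those that stayed under 20 at both times. The immediate-early list has 3 silent genes with 1 switched on, the epithelial list 33 with 0 and the receptor list 32 with 3.

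The genes of the same lists that were already present at 0 h give the setting. At 5 h against 0 h, 24.9% of tested genes were higher and 24.8% lower (3001 and 2984 genes; 2412 and 3622 with upper-quartile scaling), and at 12 h against 0 h 26.3% and 24.8% (3160 and 2985; 2745 and 3547 with upper-quartile scaling). Of 28 tested costimulatory genes 23 were higher and 2 lower at 5 h, and 21 and 1 at 12 h. CRTAM, a receptor of cytotoxic lymphocytes, averaged 1.30 ± 0.357 CPM at 0 h, 205 ± 3.22 CPM at 5 h and 56.2 ± 6.14 CPM at 12 h. TNFRSF4, a costimulatory receptor of the tumour necrosis factor receptor family, averaged 1.86 ± 0.622, 51.0 ± 14.5 and 48.8 ± 4.34 CPM at those times. Of 25 NF-κB targets 23 were higher and 0 lower at 5 h, and 18 and 2 at 12 h. BCL2A1, an anti-apoptotic member of that list, averaged 0.453 ± 0.287 CPM at 0 h, 113 ± 21.9 CPM at 5 h and 48.9 ± 3.47 CPM at 12 h. Of 24 immediate-early factors 17 were higher and 2 lower at 5 h, and 11 and 4 at 12 h. Among 25 helper and effector factors 19 were higher and 2 lower at 5 h, and 18 and 4 at 12 h.

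The neuronal, receptor and purine lists had genes called in both directions. Of 20 neuronal genes 7 were higher and 4 lower at 5 h (5 and 5 with upper-quartile scaling), and 9 and 4 at 12 h. SCG2, a secretogranin of neuroendocrine granules, averaged 1.76 ± 0.625 CPM at 0 h, 278 ± 15.3 CPM at 5 h and 243 ± 26.0 CPM at 12 h. Of 42 receptor and RGS genes 18 were higher and 8 lower at 5 h (17 and 12 with upper-quartile scaling), with 18 and 8 at 12 h. HCAR1, the lactate receptor, averaged 1.96 ± 0.638, 56.5 ± 2.55 and 54.6 ± 3.79 CPM at 0, 5 and 12 h. PTGDR2 of the same list fell, with 25.9 ± 2.49, 1.82 ± 0.808 and 1.99 ± 0.831 CPM at those times (log2 change -3.83 at 5 h, edgeR adjusted p = 8.1e-11). Of 7 purine ectoenzymes 3 were higher and 2 lower at both times. ENPP1, a nucleotide pyrophosphatase, averaged 3.67 ± 1.75 CPM at 0 h, 333 ± 9.22 CPM at 5 h and 122 ± 21.2 CPM at 12 h. Among 8 endothelial genes 2 were higher and 5 lower at both times. For 11 myeloid genes it was 2 and 4 at 5 h, then 3 and 4 at 12 h. Proteases and inhibitors (18 genes) had 6 and 6, then 7 and 9. Secreted signals (15 genes) had 7 and 4, then 5 and 6. Matrix and adhesion genes (19) had 5 and 4, then 7 and 5. Natural killer and cytotoxic genes (12) had 4 and 3, then 5 and 4.

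Some members lay beside a gene that was already present at 0 h and was higher after activation. Coordinates were those of GENCODE release 29 (GRCh38), which located 51 of the 53. Within 100 kb of a member lay 119 tested genes with more than 3 counts at 0 h, and 20 of these, or 16.8%, were called higher by 2-fold or more at 5 h or 12 h against 0 h. Beside the silent genes that stayed under 20 counts it was 676 of 9578, or 7.06%, and over all such genes it was 7.51%. The shares were 21.4% and 7.03% within 50 kb and 10.3% and 7.40% within 250 kb. Such a gene lay beside 14 of the 39 members with a tested neighbour, against 577 of 3371 silent genes that stayed under 20 counts. Neighbours of 1 locus share their position, so no test was made, and this comparison was chosen after the data were seen.

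The pairs name the loci. HCAR3 lay 9.18 kb from HCAR1, which was higher than at 0 h by 4.85 on the log2 scale at 5 h and by 4.80 at 12 h. ADRA2B lay 26.9 kb from DUSP2, a phosphatase that switches off MAP kinases, with 666, 25039 and 6442 counts at 0, 5 and 12 h. NEU4 lay 32.5 kb from PDCD1, a checkpoint receptor gene, with 56, 635 and 125 counts at those times. PEAR1 and INSRR both lay near SH2D2A, a T-cell adaptor. XIRP1 lay 28.6 kb from CSRNP1, SLC1A2 18.8 kb from the adhesion receptor CD44, ENTPD2 1.90 kb from NPDC1, DTHD1 37.1 kb from ARAP2 and LAYN 84.7 kb from POU2AF1. The 20 pairs held 18 different neighbours.

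**Figure D5:**
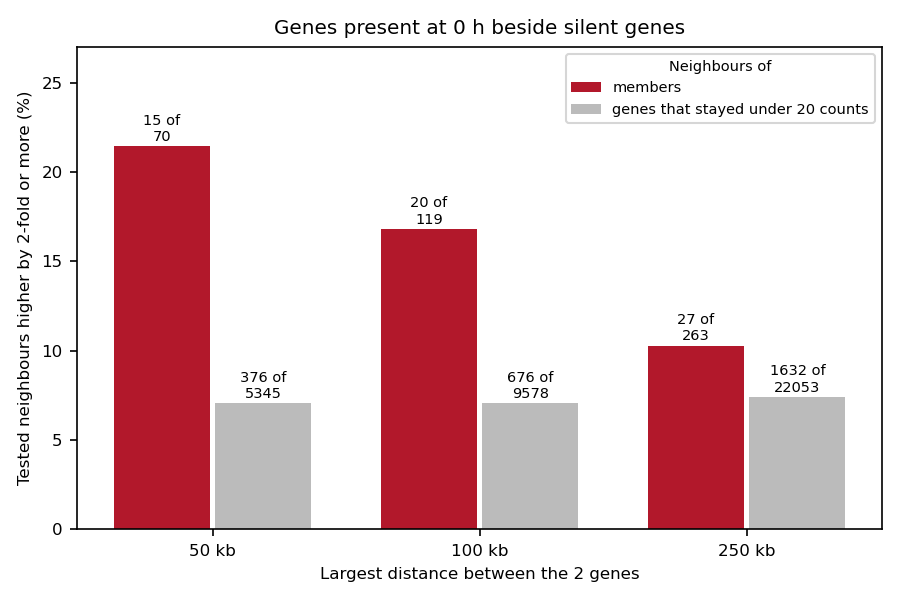
Share of tested genes present at 0 h that were higher by 2-fold or more at 5 h or 12 h (vertical, %), among the neighbours of the members (red) and of silent genes that stayed under 20 counts (grey), within 50, 100 or 250 kb; numbers above the bars are genes. The members' share is 21.4%, 16.8% and 10.3% as the distance widens, and the other share stays between 7.03% and 7.40%.

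Promoters were available for 37 of the 53 members. TATAAA lay in the 250 bases before the start in 8 of the 37, or 21.6%, against 14.2% of 3911 silent genes that stayed under 20 counts, 4.03% of 11315 genes with more than 3 counts at 0 h and 6.69% of all 15272 promoters. Beside the 5 genes printed above, CGA had it 29 bases before the start, whereas in CD200 and GAD1 it lay 147 and 166 bases before. An AP-1 motif, TGANTCA on either strand, was in 4 members, or 10.8% (MMP10, ENTPD2, XIRP1 and DTHD1), against 8.18% of the silent genes that stayed under 20 counts and 5.02% of all promoters. An NF-κB consensus was in 5, or 13.5% (VCAM1, SDC4, NTN4, PHLDB1 and TMEM132D), against 5.32% and 5.69%. The NFAT core GGAAA, on either strand, was in 54.1% of members, 56.4% of the silent genes that stayed under 20 counts and 54.5% of all promoters. The median observed over expected CpG ratio was 0.687 in members, 0.349 in the silent genes that stayed under 20 counts and 0.824 in genes with more than 3 counts at 0 h. A match describes letters in this window and does not show a site in use, and no test was made.

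Just inside the activated limit were C3orf52, TEX29 and AHSP, with higher sums of 20, 20 and 21 counts, and just outside were APLNR, ENTHD1 and B3GNT5, with 19, 19 and 18. At the 0 h limit, NR4A2, IFNG and GEM each had 3 counts. With 4 counts and so outside were RGPD6 (303 counts at 12 h and 5 at 5 h), GPR158 (195 and 40) and RGS16 (69 and 119). Members with few counts at 0 h also have wide ratios: NR4A2 was 197-fold higher at 5 h than at 0 h with a 95% counting interval of 66.9 to 957, and VCAM1 373-fold higher with an interval of 66.6 to 14793.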

How the data were processed

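A RealSeq kit turned total RNA into mRNA libraries, as the labels' protocols say. The authors deposited whole-number counts per Ensembl gene, used here as deposited. The submitters' processing notes name cutadapt, RSEM, DESeq2 and the build GRCh38.p13, without role, order or version. Aligner, annotation and strand setting were not given in the sources used here. Since RSEM estimates its counts, rounding before deposit is possible. Reads of overlapping genes or near-identical copies may be split wrongly.

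All 9 libraries entered 1 edgeR 4.0.16 quasi-likelihood fit (R 4.3.3) with 1 coefficient for each time, TMM scaling and filterByExpr, which left 12036 genes. The threshold was a Benjamini-Hochberg adjusted p of 0.05 over all genes tested. Every adjusted p comes from this fit unless another is named. Means are ± SD with n = 3. The script was tested on simulated data. Folds against 0 h carry 95% counting intervals, or are bounds against a floor of 3 counts over the group. These cover counting error only. Replicates of a group differed by more than sampling noise (chi-square per degree of freedom 2.95 to 9.39), so each library counted as 1 replicate.

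Of the gene IDs, 19543 matched the symbol table and 19500 were in GENCODE release 29. Promoters came from RefSeq (GRCh38.p14), with the first listed start per gene. Members and gene lists were chosen with earlier results of these data known, and role groups after the values were seen. The text names the members with the 20 highest means, those on a list, the largest changes at 12 h against 5 h and those at the rule's limits, and gives the others by role. Alternatives were RLE and upper-quartile scaling, no low-count filter, DESeq2 1.42.0, limma 3.58.1 (voom), a replicate block and leaving out each library.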

Additional observations from a re-analysis of the deposited data

How the results depend on the processing

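The number of members depends on the limits and on the 0 h libraries. It was 53 as reported, 14 with no count allowed at 0 h, 133 with 10 counts asked for after activation and 23 with 50. Leaving out 1 library gave 45 to 96 members, and without 0 h replicate 1, 2 or 3 it was 84, 85 and 96, since fewer libraries then enter the same limit. Counts scaled to a common library size gave 50 members. At 12 h against 5 h, 13 members were called lower with the filter, 20 without it, because all members were then tested, and 12 to 15 when 1 library was left out. The 13 include AREG, TNS3 and PHLDB1, which reached 20 counts at 5 h only. The 20 include the uncertain ENSG00000286235, ENSG00000196826 and ENSG00000260371. Among members with 20 counts at both times, 10 were lower and 1 higher with the filter. The count of all members called higher, 2 (NTN4 and SLC28A3), was 0 in DESeq2 (2 at an unadjusted p under 0.05) and 0 to 3 when 1 library was left out. It was 0 in edgeR without 5 h replicate 2, 5 h replicate 3 or 12 h replicate 1 (1, 4 and 2 at an unadjusted p) and 1 without 12 h replicate 3. Over 26 tested members and 15 settings, 363 results kept direction and side of the threshold, 16 lost the threshold, 2 gained it and 9 changed sign. All sign changes were of members that were not called, when 1 library was left out: PMF1-BGLAP (log2 changes from -0.035 to 0.849 over the libraries left out), ECEL1 (-0.022 to 0.513), DTHD1 (-0.195 to 0.288), SUCNR1 (-0.105 to 0.447) and ENTPD2 (-0.505 to 0.061). The cause was not tested. With the replicate number as a block, 2156 genes were higher and 2129 lower at 12 h against 5 h, and 2 and 13 members. Deviations of same-numbered libraries correlated between -0.143 and 0.163, so the numbers were not taken to pair the libraries. TATAAA searched on both strands and up to 50 bases past the start was in 21.6% of members, 19.05% of the silent genes that stayed under 20 counts and 9.62% of all promoters. Most members hold fewer than 100 counts over 3 libraries, which limits what their change at 12 h can show.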

Other observations

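The reverse pattern was seen as well. Of 12255 genes with 20 or more counts at 0 h, 45, or 0.367%, held 3 or fewer at 5 h or at 12 h, 22 of them at 5 h and 32 at 12 h. CD8B, a chain of the cytotoxic T-cell coreceptor, had 15, 11 and 12 counts at 0 h, 2, 1 and 0 at 5 h and 0, 1 and 1 at 12 h. CCR2, a chemokine receptor, had 11, 12 and 12 counts at 0 h, 1, 3 and 1 at 5 h and none at 12 h. ZNF683, the transcription factor HOBIT of resident lymphocytes, had 36 counts in the 0 h libraries together, 5 at 5 h and 1 at 12 h. KCNK17, a potassium channel, had 38, 1 and 2 at those times. OPALIN had 49, 3 and 25. These genes were chosen after their values were seen, and the highest of the 45 had 77 counts at 0 h.

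A single count at 0 h kept some genes out. Exactly 4 counts at 0 h and 20 or more after activation were seen in 15 genes outside the symbols set aside. PTGS1, the constitutive cyclooxygenase, had 0, 1 and 3 counts at 0 h, 27, 28 and 43 at 5 h and 13, 47 and 34 at 12 h. GPR158, an orphan receptor of neurons, had 49, 98 and 48 counts at 12 h and 15, 19 and 6 at 5 h. RGPD6 had 0, 178 and 125 counts at 12 h and 5, 0 and 0 at 5 h.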
